A study of Mus musculus with 16 samples.

Results

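In mouse embryonic stem cells, 3746 regions of the autosomes were listed as sites of single-strand breaks in cells given DMSO, in both wild-type and Tdg knockout cells, and in neither genotype after talazoparib. They were selected on presence in the authors' peak lists: peaks of the 4 conditions on chromosomes 1 to 19 were merged where they shared 1 bp or more, and a merged region was kept if it held peaks of both DMSO lists and of neither talazoparib list. They made up 3746 of 60228 merged regions (6.22%), and 3746 of the 14464 regions present in both DMSO lists, which is 25.9% (Wilson 95% interval 25.2 to 26.6, counting error only). That share is fixed by the selection and is given as a description. The other shared DMSO regions were in the KO talazoparib list only (3735), in the WT talazoparib list only (1345) or in both (5638).

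The stem cells came from C57BL/6JRj mice and were grown without serum in 2i and LIF. The growth protocol, given for all samples, has a Tdg minigene excised with 4-OHT (5 uM, 2 h before each experiment), and it does not say which dishes received it. The labels call the genotypes wild type (WT) and Tdg-depleted knockout (KO). Treated cells received 5 nM talazoparib for 24 h and the controls DMSO, and each condition had 3 immunoprecipitated (IP) libraries and 1 input library. Each condition has 1 peak list, which the labels name for all its libraries, so the spread of the 3 libraries cannot be given, and every interval covers counting over regions or the spread over autosomes. WT and KO libraries ran on different flow cells, so genotype and sequencing run cannot be told apart.

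Single-strand breaks arise at damaged bases, during base excision repair and behind topoisomerases. TDG is a DNA glycosylase that removes thymine paired with guanine and the oxidised forms of 5-methylcytosine, which leaves an abasic site that is then cut and filled in. PARP1 binds the cut strand, marks itself and its surroundings with poly(ADP-ribose) and recruits the ligation machinery, and talazoparib blocks this step and holds PARP on DNA. SSB-seq labels free 3′ ends by a short nick translation with digoxigenin-dUTP, and labelled fragments are pulled down and sequenced. A peak is a place where pulled-down DNA exceeds input by the authors' threshold, so absence from a list means that no peak was called there. No talazoparib tag count at the members was used here.

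The central sequences of strong members ran from CpG-dense to CpG-poor. Members were ranked by the smaller of their DMSO tag counts, and windows are given from the first 2 at promoters, in introns and between genes with no annotated UTR in the window, with CpG dinucleotides in capitals (build mm10, plus strand, 150 bases each). The promoter windows were chr16:11144021-11144170 (Gm23935) and chr7:16313316-16313465 (Bbc3). The intronic windows were chr11:120350216-120350365 (0610009L18Rik) and chr5:142440546-142440695 (named by its nearest start, Ap5z1). The intergenic windows were chr17:22877286-22877435 (AC154486.1) and chr7:16295257-16295406 (Ccdc9). Each window is printed under the gene with the nearest start.
Gm23935: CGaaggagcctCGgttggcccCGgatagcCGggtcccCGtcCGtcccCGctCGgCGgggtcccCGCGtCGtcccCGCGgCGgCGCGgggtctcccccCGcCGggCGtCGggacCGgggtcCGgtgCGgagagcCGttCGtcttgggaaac
Bbc3: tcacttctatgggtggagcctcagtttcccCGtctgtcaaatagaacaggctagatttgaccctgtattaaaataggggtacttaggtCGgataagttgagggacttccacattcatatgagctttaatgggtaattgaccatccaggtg
0610009L18Rik: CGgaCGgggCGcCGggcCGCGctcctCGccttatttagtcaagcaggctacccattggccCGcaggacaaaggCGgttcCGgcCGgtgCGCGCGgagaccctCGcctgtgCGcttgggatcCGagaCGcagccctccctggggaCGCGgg
Ap5z1: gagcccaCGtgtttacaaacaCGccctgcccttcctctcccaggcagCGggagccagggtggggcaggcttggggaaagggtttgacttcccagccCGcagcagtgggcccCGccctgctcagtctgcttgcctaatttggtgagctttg
AC154486.1: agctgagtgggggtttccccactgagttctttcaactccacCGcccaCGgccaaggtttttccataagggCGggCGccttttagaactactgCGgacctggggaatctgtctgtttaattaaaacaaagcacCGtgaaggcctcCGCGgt
Ccdc9: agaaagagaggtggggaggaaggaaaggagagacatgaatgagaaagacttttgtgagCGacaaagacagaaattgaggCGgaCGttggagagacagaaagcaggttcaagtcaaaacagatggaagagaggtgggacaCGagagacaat
The windows of Gm23935 and 0610009L18Rik held 26 and 20 CpG at 78.7% and 72.0% GC. The regions of Gm23935 and AC154486.1 had high WT input, at 4.90 and 3.41 times its genome mean. The Bbc3 window held 2 CpG at 44.0% GC, but it is the poor centre of a rich region: the whole region of 2585 bp had 63.3% GC and 5.34 CpG per 100 bp. The Ccdc9 window held 4 CpG at 46.7% GC. For contrast, a region found with talazoparib in both genotypes and in neither DMSO list (chr19:57573890-57574039, plus strand, nearest start AC134591.2) is shown with its run of alternating T and G in capitals.
AC134591.2: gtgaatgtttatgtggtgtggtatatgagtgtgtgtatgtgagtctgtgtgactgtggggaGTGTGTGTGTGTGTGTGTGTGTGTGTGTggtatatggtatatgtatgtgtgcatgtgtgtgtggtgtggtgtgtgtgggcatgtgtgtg
It held no CpG, and its talazoparib tag counts were 9.96 in WT and 9.79 in KO. Such windows were not all CpG-free: another with a CA run (chr1:157077536-157077685, nearest start Gm28694) held 23 CpG at 57.3% GC.

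By tag count, the members were weaker sites in both DMSO lists than the regions of all 4 lists and stronger than the DMSO regions of 1 genotype. Their median tag count, in tags per 10000000 IP tags, was 4.88 in WT DMSO (95% interval of the median 4.83 to 5.00, range 2.53 to 84.2) and 6.98 in KO DMSO (6.87 to 7.09, range 2.96 to 139.8). Regions of all 4 lists had medians of 14.0 in WT DMSO and 23.3 in KO DMSO, and DMSO regions of 1 genotype 3.39 and 4.63. The talazoparib regions absent with DMSO had medians of 4.24 in WT talazoparib and 6.40 in KO talazoparib. The median IP density of a member, its tags per bp relative to the average over the genome, was 1.99 in WT and 2.52 in KO, against 3.35 and 4.34 in the regions of all 4 lists. Thus 2157 members had under 5 tags in at least 1 list, 284 had over 10 in both, and 17 had over 20 in both. The authors' fold over input was at least 4.00 at every peak by their threshold; its median among members was 4.99 in WT and 5.89 in KO, and 2384 members (63.6%) had a fold under 5 in at least 1 list, against 45.4% of the regions of all 4 lists. By fold the order against the DMSO regions of 1 genotype turned, as their medians were 5.11 in WT and 6.74 in KO. Peaks of members were also wider, and a member had to be called in both lists. Median widths were 629 bp in WT and 755 bp in KO for members, against 500 bp in each list for those regions. The folds of members rested on few input tags: 26.5% of members had fewer than 3 in WT and 43.5% fewer than 3 in KO.

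Tag counts of the genotypes went together across the members, with Pearson's r of 0.56 on the log2 scale and Spearman's rank correlation of 0.50 over 3746 regions. This is a description, since a region had to pass the peak threshold in both lists. KO tags exceeded WT tags at 2947 members (78.7%), with a median log2 ratio of KO over WT of 0.49 and 5th and 95th percentiles of -0.53 and 1.67. These tags were summed over each list's own peaks, and the KO peaks were wider (median 755 bp against 629 bp). The median IP densities were 2.52 in KO and 1.99 in WT, and the part of width in the ratio was not tested. By tags, the regions of all 4 lists showed the same direction, at 92.7% of regions with a median of 0.68. The peaks of the genotypes overlapped, which the selection requires, so their nearness is a description. Their centres were a median of 167 bp apart, the overlap had a median of 500 bp, and 60 members overlapped by under 50 bp. A median of 79.7% of the WT peak lay inside the KO peak (5th percentile 20.7%), and 66.4% of the KO peak inside the WT peak (18.3%). Exactly 1 peak of each list was held by 3713 members.

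**Figure D1:**
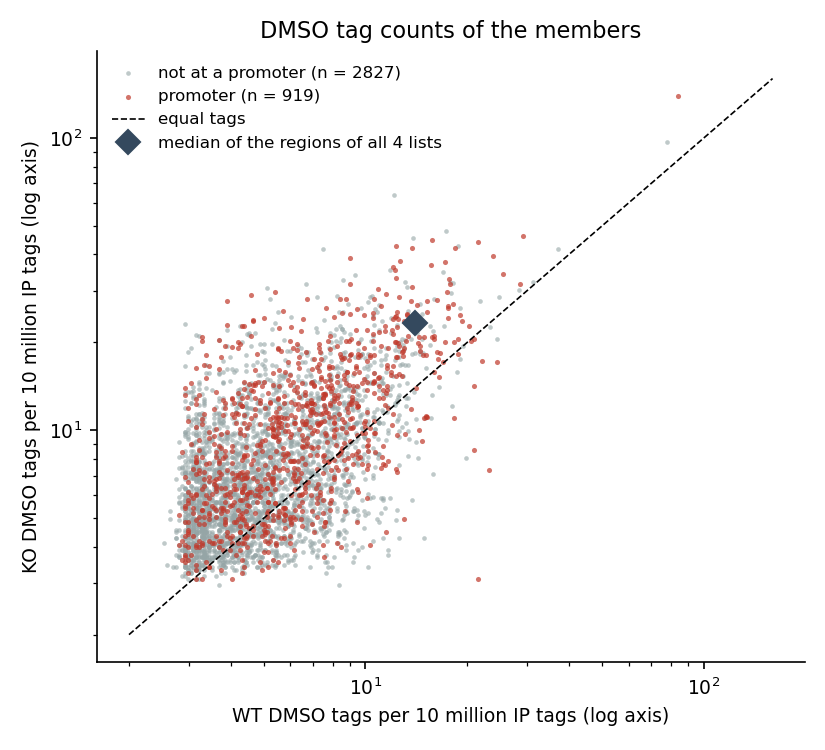
Each point is 1 of the 3746 members, with its WT DMSO tags on the x axis and its KO DMSO tags on the y axis (tags per 10000000 IP tags, log axes), 919 of them at promoters in red. Most points lie above the dashed line of equal tags and below the diamond that marks the medians of the regions of all 4 lists (14.0 and 23.3), and a pair of points stands far above the others.

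Absence from the talazoparib lists followed the strength of the DMSO signal. When the 14464 shared DMSO regions were ordered by the smaller of their DMSO tag counts and cut into 10 groups of like size, 60.4% of the weakest group (tags 2.53 to 3.56) and 0.90% of the strongest (21.6 to 158.3) were members. In all, 3161 members (84.4%) came from the weakest 5 groups and 13 from the strongest. Cut into 4 groups by the WT tag count alone, the share absent was 53.5% in the weakest group and 2.63% in the strongest, and by the KO tag count alone it was 57.6% and 3.04%. The talazoparib lists were also shorter, with 15343 autosomal peaks in WT and 23559 in KO against 28243 and 35020 with DMSO, and their input libraries held 24.5 M and 28.3 M tags against 38.1 M and 24.8 M. With equal numbers of best-scoring peaks from each list (15343), 1444 regions met the rule, 19.4% of the shared DMSO regions, and 1218 of the 3746 members were still members. The part of list length and input depth in the absence was not tested further.

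At like strength, promoters were absent less often than other regions. In the weakest of the 10 groups, 121 of 253 promoter regions were absent (47.8%) against 795 of 1264 others (62.9%), a difference of -15.1 percentage points (Newcombe 95% interval -21.7 to -8.36). In group 5 the shares were 21.2% and 30.1%, a difference of -8.82 points (-13.3 to -4.26). The promoter share was the lower one in 10 of 10 groups, and the interval lay below 0 in 9 of them; in group 9 it ran from -3.19 to 1.10. This division was chosen after the data were seen.

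**Figure D2:**
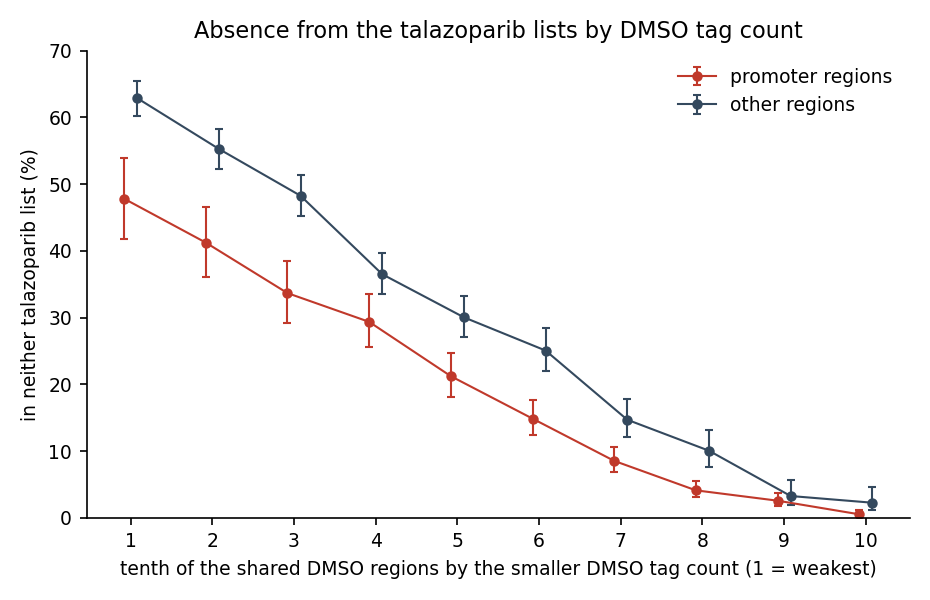
The share of shared DMSO regions found in neither talazoparib list (y axis, percent) is plotted in 10 groups by the smaller DMSO tag count (x axis, 1 is the weakest), for promoter regions in red and other regions in dark blue, with Wilson 95% intervals as bars. Both lines fall from left to right, from 47.8% and 62.9% to 0.53% and 2.27%, and the red line stays below the dark blue one.

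By distance, few members lay within 100 bp of a talazoparib peak. The closest talazoparib peak lay a median of 7202 bp away (95% interval 6830 to 7697), with a minimum of 9 bp; 36 members lay within 100 bp of one, 421 (11.2%) within 1 kb and 2184 (58.3%) within 10 kb. For DMSO regions of 1 genotype the median was 8112 bp (7936 to 8316) and 10.4% lay within 1 kb. The 36 members within 100 bp had median tag counts of 5.60 in WT and 8.06 in KO, and the 38 shared DMSO regions that a talazoparib peak reached by under 100 bp had 5.06 and 6.76. When talazoparib peaks were widened by 1 kb on each side, 3325 members remained. Distance does not measure how near a region was to the peak threshold. With a fold of at least 6 at every peak 507 of the 3746 members were kept, and with at least 3 input tags 1763.

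The members lay less at promoters and more in introns and between genes than the regions of all 4 lists. A promoter was taken as 1000 bp before to 100 bp after a GENCODE M21 transcript start, read at the centre of a region. Of the members, 919 were at promoters (24.5%, Wilson 95% interval 23.2 to 25.9), 1240 in introns (33.1%, 31.6 to 34.6), 1010 between genes (27.0%, 25.6 to 28.4), 263 at transcript ends (7.02%), 230 in other exons (6.14%), 45 in 5′ UTRs and 39 in 3′ UTRs. In the regions of all 4 lists 67.3% were at promoters, so the members stood 42.7 points lower: the difference was -42.7 points (Newcombe interval -44.5 to -40.9), with the members lower on 19 of 19 autosomes. Their intron share was 19.6 points higher (17.8 to 21.3) and their intergenic share 17.7 points higher (16.1 to 19.4), each on 19 of 19 autosomes. Transcript ends were also more frequent among members, by 4.34 points (3.44 to 5.29) and on 19 of 19 autosomes. Shared DMSO regions kept in 1 talazoparib list lay between, with 40.03% at promoters where KO kept them and 47.1% where WT did. The promoter share also rose with strength, from 253 of 1517 shared DMSO regions in the weakest of the 10 groups to 1137 of 1446 in the strongest, and the members were mostly weak; the part of strength in the difference of -42.7 points was not tested beyond the comparison at like strength. The direction of the promoter difference held in all 9 alternatives, from -45.0 to -33.2 points.

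Against other regions found in exactly 2 lists, the promoter share of the members lay within the range. The 480 regions found with talazoparib in both genotypes and in neither DMSO list had a promoter share of 20.8%, a difference of 3.70 points (-0.39 to 7.37), with the members higher on 14 of 19 autosomes. This interval holds 0, and the direction turned with the input filter: with at least 3 input tags at every peak the difference was -18.8 points (-27.7 to -9.88), over 123 such regions. Across the 6 classes of regions found in exactly 2 lists the promoter share ran from 18.9% (WT DMSO with WT talazoparib) to 29.6% (WT talazoparib with KO DMSO), with the members at 24.5%. DMSO regions of 1 genotype were at promoters in 11.2% of cases, 13.3 points below the members (11.9 to 14.8), on 19 of 19 autosomes and in all 9 alternatives.

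**Figure D3:**
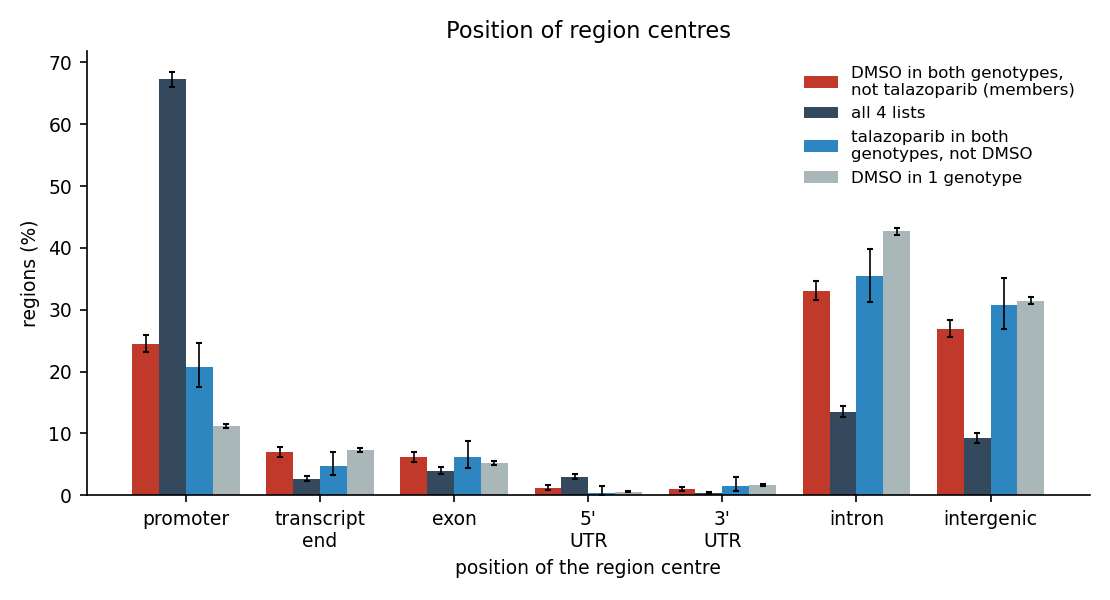
Bars give the percent of regions of each class (y axis) whose centre fell in each kind of position (x axis), with Wilson 95% intervals, for the members in red, regions of all 4 lists in dark blue, talazoparib regions absent with DMSO in light blue and DMSO regions of 1 genotype in grey. The promoter bar is 67.3% for the regions of all 4 lists and 24.5% for the members, whose bars lie close to the light blue ones at every position.

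The members lay further from starts than the regions of all 4 lists. The median distance from a member to the nearest transcript start was 3560 bp (3205 to 3823), against 133 bp (126 to 141) in the regions of all 4 lists and 4137 bp (3274 to 4950) in the talazoparib regions absent with DMSO. Within 1 kb of a start lay 1270 members, 565 upstream and 705 downstream, and 762 of the 1270 were within 200 bp; the share within 200 bp among regions near a start was 74.2% in the regions of all 4 lists and 69.8% in the talazoparib regions absent with DMSO, both above that of the members. The start belonged to a protein-coding gene in 82.1% of the 1270 (79.9 to 84.1) and in 91.4% of the 4509 regions of all 4 lists that lay within 1 kb of a start (90.6 to 92.2). At the other end, 122 members (3.26%) lay over 50 kb from any start.

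**Figure D4:**
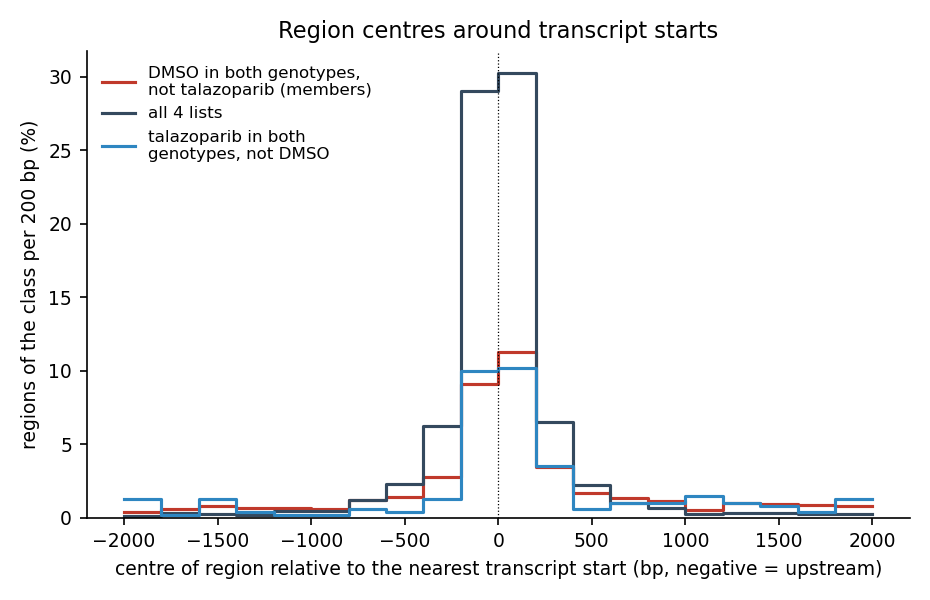
The percent of regions per 200 bp (y axis) is drawn by position of the region centre relative to the nearest transcript start (x axis, bp, negative values upstream) for 3 classes. The 2 bins beside the start hold 9.08% and 11.3% of the members (red) and 29.0% and 30.3% of the regions of all 4 lists (dark blue), and the light blue line is that of the 480 talazoparib regions absent with DMSO.

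In base composition the members lay below the regions of all 4 lists and above the DMSO regions of 1 genotype. Their median GC was 51.8% (51.5 to 52), with 1.95 CpG per 100 bp (1.89 to 1.99) and a ratio of observed to expected CpG of 0.30. In the regions of all 4 lists these were 56.3%, 5.17 and 0.66. Averaged over autosomes, the median GC of members was lower by 4.89 points: the difference was -4.89 ± 1.18 (SD, n = 19 autosomes; 95% interval -5.46 to -4.32), with the members lower on 19 of 19. A 200 bp stretch with at least 50% GC and a CpG ratio of at least 0.6 was found in 44.7% of members (43.1 to 46.3) in 87.1% of the regions of all 4 lists and in 19.4% of the DMSO regions of 1 genotype, 25.3 points below the members (23.7 to 27.0). The members were also shorter, with a median of 923 bp against 1599 bp in the regions of all 4 lists and 500 bp in those of 1 genotype, and a longer region has more chances to hold such a stretch.

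The composition went with position within the members. Promoter members had a median GC of 57.2% and 4.96 CpG per 100 bp, and the 2827 others 50.6% and 1.65. Against the talazoparib regions absent with DMSO, the members' median GC differed by 0.48 points (-0.26 to 1.22) and their CpG count by 0.14 per 100 bp (-0.09 to 0.37), intervals that hold 0. The GC difference moved with the filters: it was -5.35 points (-7.24 to -3.46) with at least 3 input tags at every peak, over 123 such talazoparib regions, and 2.00 points (0.53 to 3.46) with a fold of at least 6. Soft-masked repeat sequence did differ: its median was 12.1% of a member and 16.8% of those regions, a mean difference over autosomes of -8.43 points (-13.2 to -3.68), with the members lower on 16 of 19. Compared with DMSO regions of 1 genotype, the members had a GC median 1.66 points higher (1.41 to 1.90) and 0.46 more CpG per 100 bp (0.41 to 0.52), each on 19 of 19 autosomes.

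The clearest difference in sequence between the members and the talazoparib regions absent with DMSO was a repeat of the dinucleotide CA. A run of 6 or more CA units, read on both strands and in either phase in the central 500 bp, was present in 132 members (3.52%, 2.98 to 4.16) and in 103 of the 480 talazoparib regions (21.5%, 18.0 to 25.4). The difference was -17.9 points (-21.9 to -14.4), with the members lower on 18 of 19 autosomes, and it kept its sign in all 8 alternatives, from -27.3 to -7.88 points. Over all 60228 regions the share was 8.17%. Runs of 6 or more GA units went the same way, at 1.36% of members and 6.88% of the talazoparib regions. The comparison was noticed after the values were seen, and the talazoparib regions rest on little input: 78.1% of them had fewer than 3 input tags in the WT talazoparib list. CA runs were most frequent in the 4 combinations that hold WT talazoparib without KO DMSO: 34.2% with WT DMSO, 29.5% alone, 21.5% with KO talazoparib and 18.2% with both. The 4 combinations of WT talazoparib that also hold KO DMSO were at 2.61% to 7.54%, and WT DMSO alone was at 10.5%. The part of the low input in this difference was not tested beyond the input filter, under which it was -10.5 points (-17.7 to -5.41).

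**Figure D5:**
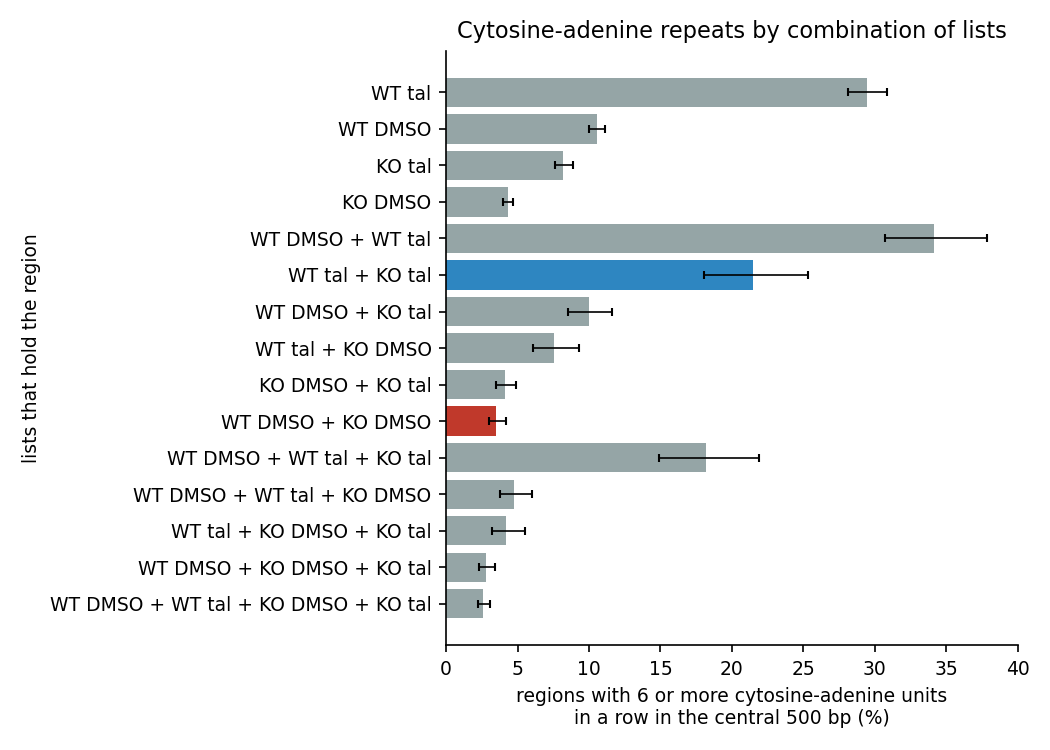
Bars give the percent of regions with at least 6 CA units in a row in the central 500 bp (x axis) for each of the 15 combinations of lists (y axis), with Wilson 95% intervals; the members are red and the talazoparib regions absent with DMSO light blue. The red bar is at 3.52% and the light blue one at 21.5%, and the longest bar, 34.2%, is WT DMSO with WT talazoparib.

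Of the short motifs searched, the GC box and runs of G were more frequent in promoter members than in the others, and CCAAT and TATAAA were less frequent. All were searched on both strands of the central 500 bp, and a match is a description of the letters only. GGGCGG, the GC box, was found in 34.9% of members (33.4 to 36.4), in 60.7% of promoter members and 26.5% of the others; the share was 71.9% in the regions of all 4 lists, 33.8% in the talazoparib regions absent with DMSO and 30.4% over all regions. Runs of G that could fold into a 4-stranded structure (4 runs of at least 3 G, 1 to 7 bases apart) were in 21.7% of members (34.0% of promoter members and 17.7% of the others) and 38.2% of the regions of all 4 lists. The share over all regions was 20.35%. CCAAT was in 45.1% of members (40.4% of promoter members and 46.6% of the others) and 44.1% of all regions. TATAAA was in 13.6% of members (9.47% of promoter members and 15.0% of the others) against 7.45% of the regions of all 4 lists, a difference of 6.19 points (4.91 to 7.50). The members were not above the background, as 15.03% of all regions held it. Against the 17.3% of DMSO regions of 1 genotype the difference was -3.64 points (-4.80 to -2.42). TCAAGGTCA, the half-site bound by the pluripotency factor ESRRB, was in 73 members (1.95%) and 0.92% of the regions of all 4 lists, and 1.95% of all regions held it. ATGCAAAT, the octamer of POU factors, was in 123 members (3.28%) and 2.82% of all regions.

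The strongest members held a few sites apart from the rest. The highest tag counts were at chr16:11143564-11144627, at the start of Gm23935, a predicted miRNA gene near Zc3h7a, with 84.2 tags in WT and 139.8 in KO, and at chr17:22876423-22878298, an intergenic region 3875 bp from the pseudogene AC154486.1, with 78.1 and 97.4. At Gm23935 the input was also high, at 4.90 times its genome mean in WT and 3.61 times in KO, and at AC154486.1 it was 3.41 times in WT and 0.74 times in KO. Soft-masked repeat sequence made up 36.4% and 35.1% of these regions. The part of input and repeats in the tag counts was not tested, and copies of these sequences elsewhere in the genome were not examined. Among the next promoters was an internal one of Bbc3, which encodes the p53-induced cell-death protein PUMA. It had 29.3 tags in WT and 46.4 in KO over 2585 bp and a talazoparib peak 412 bp away. Ppp1r12b, a regulatory subunit of myosin phosphatase, had 28.7 and 31.7, with its region centred 4 bp from the start. Zdhhc14, a palmitoyltransferase, had 25.5 and 34.3. A shared promoter of AC109138.6 and Ppp1ca, the latter a catalytic subunit of protein phosphatase 1, had 23.8 and 39.4. Tags were summed over peaks whose widths differed between the lists. IP density was higher in KO at Gm23935 (34.82 against 29.64 in WT) and Zdhhc14 (4.925 against 4.065). It was lower in KO at AC154486.1 (13.75 against 20.07), Bbc3 (4.752 against 5.383), Ppp1r12b (7.311 against 7.464) and AC109138.6 (4.767 against 6.251).

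Away from promoters the strongest members lay at genes of varied kinds, pseudogenes and non-coding transcripts among them. At an annotated transcript end of Setd1b, a histone H3 lysine 4 methyltransferase, 37.0 tags in WT and 41.9 in KO fell in 2887 bp. Arhgef19, a guanine nucleotide exchange factor, had 21.8 and 27.8, and a region at Cd37, a leukocyte tetraspanin, had 17.9 and 29.5 with a talazoparib peak 84 bp away. A region at the U2 small nuclear RNA gene Rnu2-10 had 17.0 and 34.8. In introns, 0610009L18Rik beside Actg1, the gamma actin gene, had 24.9 and 28.5 at 62.8% GC, the homeobox gene Nkx6-2 had 17.8 and 32.2, and the semaphorin Sema4b had 17.3 and 48.2. By IP density KO was not above WT at Sema4b (3.77 in WT and 3.65 in KO) or at Cd37 (3.67 and 3.25). At the other sites named in this paragraph the density was higher in KO. An intergenic region near Ccdc9 had 31.3 and 32.2 and a talazoparib peak 329 bp away. The Setd1b, Nkx6-2, Cd37, Ccdc9 and Bbc3 regions each had a talazoparib peak within 1 kb and so would leave the set if talazoparib peaks were widened by that much.

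Genes with a member were common. A member lay in the body or within 5 kb of 2911 of 20780 autosomal protein-coding genes, which is 14.0%. Of these genes 2467 had 1 member, 361 had 2 and 83 had 3 or more, and 983 members were near no protein-coding gene. Genes with a member were longer, with a median of 28.9 kb against 16.3 kb. Most also had a talazoparib region in the same window: 2372 genes (81.5%) did, against 66.9% of all protein-coding genes, and 539 (18.5%) did not.

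The genes with most members in their bodies were mostly long. Gm20388, a model that spans 4435 kb and many other genes, held 29. Arhgef10l, a guanine nucleotide exchange factor gene of 151.5 kb, held 7, all in introns, with 3.28 to 9.71 tags in WT and 3.69 to 26.2 in KO; 10 shared DMSO regions lay in its window, and 14 talazoparib regions did too. Fgfr2, a fibroblast growth factor receptor whose annotated body spans 2961 kb in this release, held 6. Tbc1d16 (a Rab GTPase-activating protein), Xxylt1 (a xylosyltransferase of Notch modification), Iqgap1 (an actin scaffold), Dst (a cytoskeletal linker), Usp7 (a deubiquitinase of the p53 pathway) and Gng7 (a G protein gamma subunit) held 5 each. At Xxylt1 all 5 shared DMSO regions of its window were members. The windows of the genes in this group held 3 to 193 talazoparib regions, a count not limited to shared DMSO regions.

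Genes of DNA methylation and of DNA repair are given here with the share of their lists that had a member, to be read beside the 14.0% of all protein-coding genes. A list's share was not tested, and genes with a member were the longer ones. Only genes with a shared DMSO region in their window could have a member, and the lists differ in how many they hold. In the list of DNA methylation and demethylation 10 of 24 genes had a member. Tet3, an enzyme that oxidises 5-methylcytosine, had a region at an internal promoter with 11 tags in WT and 12.9 in KO, and Tet1 one at an internal promoter with 8.05 and 12.9. Dnmt3l, a cofactor of de novo methylation, had 11.5 and 13.4 at an internal promoter. Setdb1, a histone H3 lysine 9 methyltransferase, had 8.51 and 8.68 at its promoter with no talazoparib region in the window. Kdm2b, a CpG-binding histone demethylase, had 2 members of 3.22 to 5.71 tags, and Dnmt3a, Trim28, Zbtb38 and Smug1 had values of 2.87 to 9.62.

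In base excision and strand break repair 6 of 28 genes had a member. Ung, the uracil glycosylase, had 2, with 5.34 and 9.25 tags in WT and 8.10 and 10.5 in KO. Smug1, another uracil glycosylase, had 2 with 3.45 to 7.37 tags. Mutyh, the adenine glycosylase, had 5.11 tags in WT and 30.7 in KO, at densities of 2.71 and 3.01 times the genome mean. Aptx, which repairs abortive ligation ends, had 4.37 and 22.8 at its promoter, at densities of 2.31 and 3.35. At both, the tags of the genotypes lay further apart than the densities, since the KO peak was the wider one. Parp3, a PARP relative active at breaks, had 8.68 and 8.97. In homologous recombination and the Fanconi pathway 8 of 29 genes had a member. Rad52 had 4.60 tags in WT and 11 in KO at its promoter, and its window held no talazoparib region. Fanci had 2 members upstream, and Fancm and Fancc 1 intronic member each, with 6.84 and 6.26 tags in WT and 10.7 and 13.4 in KO.

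Among signalling and identity genes the highest share was in FGF-ERK and Wnt feedback, 13 of 30, and all 30 of its genes had a talazoparib region too. Tcf7l2, a transcription factor of Wnt signalling, had 16.0 and 20.6 tags at a promoter. Fgfr1 had 2 intronic members, the higher with 11.7 and 9.76, and Spred2, an inhibitor of ERK signalling, had 7.07 and 14.8 upstream. In naive pluripotency 5 of 25 genes had a member: Esrrb 2 with 3.39 to 5.75 tags, Tcl1 1 at its promoter with 9.42 and 14.2, Nr5a2 1 with 4.54 and 21.2 (densities 2.40 and 3.11), and Nanog 1 with 4.08 and 6.15. The p53 response had 3 of 20, led by Bbc3, and cytosolic ribosomal proteins had 10 of 30, among them Rpl8 with 2 members and Rps9 with 10.2 and 3.40 (densities 1.87 and 1.80). In imprinted genes 9 of 29 had a member. One region of 24.5 and 17.2 tags at the start of Nespas lies in the Gnas cluster and counts for both genes. Kcnq1 had 3, of which 2 lay 83 and 88 bp from a talazoparib peak and 1 also counts for Kcnq1ot1. Plagl1 had 2, the higher with 8.62 and 15.5 tags at an internal promoter. Among the genes named from the lists, a member of Tet1 (612 bp), Fancc (299 bp), Tcl1 (771 bp), Nr5a2 (884 bp), Fanci (926 bp), Rps9 (606 bp) and Fgfr1 (964 bp) also had a talazoparib peak within 1 kb. These and the 2 of Kcnq1 would leave the set with the widening by 1 kb.

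The remaining lists lay on both sides of the background. Polycomb-controlled developmental regulators had 5 of 40, with Lmx1b at 2 members and Pax2 at 7.41 and 15.0 tags. Glycolysis had 3 of 19, with Ldhb at 9.02 and 10.2 and no talazoparib region in its window. Large late-replicating genes had 5 of 24, among them Nrxn3, with 13 and 19.2 tags at an internal promoter and the closest talazoparib peak 1281286 bp away. Markers of other cell types had 5 of 20 for extraembryonic endoderm (Sparc 2, and Apoa1, Gata4, Col4a2 and Hnf4a) and 1 of 15 for fibroblasts (Fn1). Peaks of breaks do not measure expression, so these counts say nothing of which cells were in the dishes. In all, 11 of the 13 lists were above 14.0% and 2 were below, from 6.67% to 43.3%. A member is a shared DMSO region, and 10845 protein-coding genes (52.2%) had such a region in their window. Of these, 2911 had a member. Among listed genes with such a region, a member was found at 10 of 21 in DNA methylation and 13 of 24 in FGF-ERK and Wnt feedback. It was found at 6 of 22 in base excision and strand break repair, 5 of 20 in naive pluripotency and 3 of 18 in the p53 response. A share above 14.0% is therefore not read as a result about a list.

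The start of Tdg itself was a member. The region at chr10:82629628-82630622, 994 bp long with 62.1% GC and 9.05 CpG per 100 bp, had 20.9 tags in WT DMSO and 8.60 in KO DMSO, and no talazoparib peak within 5812 bp. Its log2 ratio of KO over WT was -1.28, and 19 of the 3746 members (0.51%) had a lower one, while the median was 0.49. The input went the same way: 14.0 input tags, 1.55 times the genome mean, in WT and 3.50 tags, 0.44 times the mean, in KO, and 6 members had a higher input density in WT. A KO DMSO peak of 6.15 tags lay past the end of the gene (chr10:82652540-82653171), and neither talazoparib list had a peak in the body of Tdg or within 5 kb. What the minigene contains of this sequence was not examined, and its part in these values was not tested.

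The members were spread over all autosomes. Chromosome 11 held the most, 394, or 3.32 per Mb of sequenced bases, and also the highest share of shared DMSO regions absent with talazoparib, 30.6% (28.2 to 33.2). Chromosome 6 had the lowest share, 22.6% (19.4 to 26.1), and 0.93 members per Mb, and the remaining autosomes lay between these shares. Of the members, 269 (7.18%) lay within 5 kb of another member and 2128 (56.8%) within 100 kb. The same count is not given for other regions, so these shares do not show whether members cluster. The densest 500 kb held 13 members each, on chromosome 10 from Gng7 to Nfic, out of 37 shared DMSO regions, and on chromosome 4 from Spsb1 to Rere, out of 23.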

How the data were processed

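SSB-seq was done on 16 libraries, 3 immunoprecipitated and 1 input library in each of 4 conditions. Per the submitters' processing notes the tools were Bowtie2 2.3.4.2, Picard 2.9.2, R 3.6 and HOMER 4.11, with build mm10. The authors deposited 1 peak list per condition, which the labels name for all its libraries. Per the file headers, the authors' lists give a signal (tags per 10000000 IP tags and input tags), a score, a fold ratio over input and a p-value per peak; the p-value was not used. Input totals, derived here from the authors' tags scaled to input over their tags per 10000000, are 24.5 M to 38.1 M tags, and peaks rest on few input tags, which limits the precision of each fold.

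Lists were merged on chromosomes 1 to 19 where peaks shared 1 bp (Python 3.11.15, pandas 2.3.3, NumPy 2.4.6, SciPy 1.17.1). Region centres were annotated with GENCODE M21, in the order promoter, transcript end (100 bp before to 1 kb after), exon, UTR, intron, intergenic. Shares have Wilson and their differences Newcombe 95% intervals, which cover counting error only; medians were compared over 19 autosomes with a t interval. The scripts were tested on simulated data. Starts are printed as listed, and whether they count from 0 or 1 is unknown.

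The members and gene lists were chosen with earlier results of these data known. Named were the first 5 members per class of position by the smaller DMSO tag count, 8 genes with most members and those tied with them, Tdg, and genes of each of 13 lists. Alternatives changed merging, overlap, peak thresholds, list length, promoter window, sequence window and chromosomes. Some sequences and genes are not reported here.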

Additional observations from a re-analysis of the deposited data

Results flagged for a closer look

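Chromosome X was outside the comparisons, and 29 of its 240 shared DMSO regions met the same rule (12.1%, Wilson 95% interval 8.55 to 16.8), against 25.9% on the autosomes. Their median tag counts were 3.62 in WT DMSO and 5.93 in KO DMSO, and 12 of the 29 were at promoters (41.4%, 25.5 to 59.3).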

How the results depend on the processing

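The number of members was 1248 with a fold of at least 6, 1444 with equal numbers of best-scoring peaks and 2119 with IP density no lower than 2 times the mean of the genome, and stayed within 1.5 times of 3746 in the other 5 alternatives. Of the 3746 members, 507, 1218 and 1771 were kept under those 3 settings, and 1763 with at least 3 input tags. The share of shared DMSO regions absent was 24.94% where overlap had to cover at least 0.5 of the shorter peak, 22.82% with talazoparib peaks widened by 1 kb, 49.50% with a fold of at least 6, 24.01% with at least 3 input tags, 19.42% with equal numbers and 19.83% with the density threshold. The promoter difference to the talazoparib regions absent with DMSO was 6.120 points with widened peaks and 7.925 with a fold of at least 6, both with intervals above 0; it turned to -18.83 with at least 3 input tags and to -2.906 with equal numbers. The GC difference to the same regions was 1.996 points with a fold of at least 6, -5.347 with at least 3 input tags and -0.1126 with chromosome X added. The cause was not tested. Differences to the regions of all 4 lists and to DMSO regions of 1 genotype, in promoter share and GC, kept their direction and side of 0 in all 9 alternatives each. No paired analysis was possible because each condition has 1 deposited list with no value per library, and leaving out a replicate could not be run for the same reason. Members had a median of 3.5 input tags in WT and 3.0 in KO, which limits the precision of each fold.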
